A study of Mus musculus with 24 samples.

Results

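The DOT1L knockout, 3 libraries, was compared with a non-targeting control, also 3 libraries. These are 6 of the 24 RNA sequencing libraries of the series, and all genes with enough counts to test were described, 10578 of the 43629 in the table. Every library was made from mouse acute myeloid leukaemia cells driven by the MLL-AF9 fusion and expressing Cas9, the nuclease that cuts where a guide RNA directs it. Guides were delivered by lentivirus at an MOI of 0.3, puromycin at 2 ug/ml was applied for 72 hours from 48 hours after transduction, and RNA was taken on day 9. The knockout carried a guide labelled DOT1L-5-1 and the control a guide labelled mNTG2, so an effect of DOT1L loss and an effect particular to that guide cannot be told apart. The other 18 libraries carried guides against MLLT10, MLLT1 or MLLT6, in 6 groups of 3. Nothing in the labels says that replicates were separate cultures. The p-values therefore measure only how these libraries vary, which may be technical.

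DOT1L is the methyltransferase that modifies lysine 79 of histone H3 along transcribed genes. In leukaemia with an MLL fusion, the fusion protein brings DOT1L complexes to its target genes, and the Hoxa cluster and Meis1 are the best known of these. Neutrophils arise from promyelocytes through stages that are read from their granules: primary granules form first, secondary granules at the myelocyte stage, and gelatinase granules and surface receptors later, while the nucleus becomes lobed and the cell gains the oxidase, receptors and actin machinery of a phagocyte.

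The targeted gene was examined first. Dot1l (ENSMUSG00000061589, chromosome 10, 80755206 to 80795461, mm10) was at 49.05, 41.6 and 43.3 CPM, counts per 1000000 counts of a library scaled by TMM, in the 3 knockout libraries, and the 3 controls held 69.7, 75.1 and 73.9 CPM. The knockout libraries were lower and the groups did not overlap. Its log2 fold change, given here and below with its SE, was -0.71 ± 0.13 (edgeR quasi-likelihood F test, Benjamini-Hochberg adjusted p = 0.000189); every edgeR adjusted p below comes from the same test. Small insertions and deletions need not lower an mRNA, so this level is a weak check of the label. Mllt6, a partner of DOT1L, was at 19.3, 19.9 and 14.1 CPM against 30.1, 42.2 and 32.7 CPM and fell by 0.996 ± 0.23 (edgeR adjusted p = 0.00214), whereas Mllt10 and Mllt1 were not called (log2 fold changes of -0.01 ± 0.25 and 0.46 ± 0.25, edgeR adjusted p = 0.986 and 0.199).

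Library totals ranged from 2403044 to 7415397 counts over the series, from 3065608 to 6448131 in the knockout and from 2403044 to 3127008 in the control. On the first principal component, which held 33.7% of the variance, the 3 knockout libraries stood at -77.0 to -73.6 and the other 21 libraries between -4.98 and 30.8. The 10 most abundant genes took 12% to 13.1% of counts in the knockout and 5.47% to 5.67% in the control. Genes with many near-identical copies in the genome had few counts, as Gapdh at a mean of 2.28 CPM over the 6 libraries beside 4215 CPM for Actb. The sources used here do not say how reads that fit several places were counted, so values of genes with close copies, such as the Stfa, Pilrb, H2 and haemoglobin genes, are uncertain.

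The name neutrophil-like was checked against marker lists. The 10 neutrophil markers all rose, and their summed level was 91402 to 105219 CPM in the knockout against 321 to 410 CPM in the control. Summed monocyte markers overlapped between the groups (3437 to 4259 against 4014 to 6267 CPM). That sum was mostly Ly6c2, which was not called, while Csf1r and F13a1 were higher and Ccr2 and Irf8 lower. The macrophage sum was lower (42.0 to 56.7 against 169 to 272 CPM) through Adgre1, the 1 marker of 8 called lower. Cd68 was not called (10.4, 13.2 and 11.6 against 9.89, 18.1 and 12.8 CPM), and 5 of 8, among them the complement genes C1qa, C1qb and C1qc, were at 0 in all 6 libraries. The dendritic cell sum was lower (10.7 to 20.8 against 86.1 to 173 CPM) through Flt3, the 1 marker tested. Xcr1, Zbtb46 and Cd209a were at 0 throughout, and Itgax was at 0.891 to 1.86 CPM against 0.313 to 1.17 CPM. Sums for eosinophil markers were 31.3 to 47.4 CPM against 3.71 to 9.07 CPM, and Siglecf made up most of them: Ccr3, Il5ra and Epx were at or near 0. Mast cell and basophil sums were lower (32.8 to 47.2 against 119 to 152 CPM). The erythroid sum was lower (2.601 to 4.28 against 68.4 to 96.6 CPM) through the globin gene Hbb-bt, the 1 marker tested, whose level is uncertain because of near-identical globin copies. Megakaryocyte sums overlapped (18.8 to 24.4 against 8.55 to 18.96 CPM), with Pf4 and Gp9 higher and Itga2b lower. The T cell sum was lower (3.91 to 8.02 against 8.55 to 16.1 CPM) through Lck, the 1 marker tested. The B cell and NK cell markers were at 0 apart from low counts of Cd79b and Eomes. Stromal sums were lower (178 to 208 against 347 to 456 CPM) mostly through Pecam1, whereas the collagen gene Col1a1 was at 16.7, 14.6 and 19.96 CPM against 0, 0.938 and 0.389 CPM. The part of these cell types in the results below was not tested. Sums of the leukaemia's own markers overlapped (692 to 707 against 662 to 733 CPM), with Hoxa9 and Meis1 lower, Spi1 and Itgam higher, and Ptprc and Kit not called. In bulk RNA, fewer cells of a type and less RNA per cell cannot be told apart, and this holds for each value below.

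**Figure D1:**
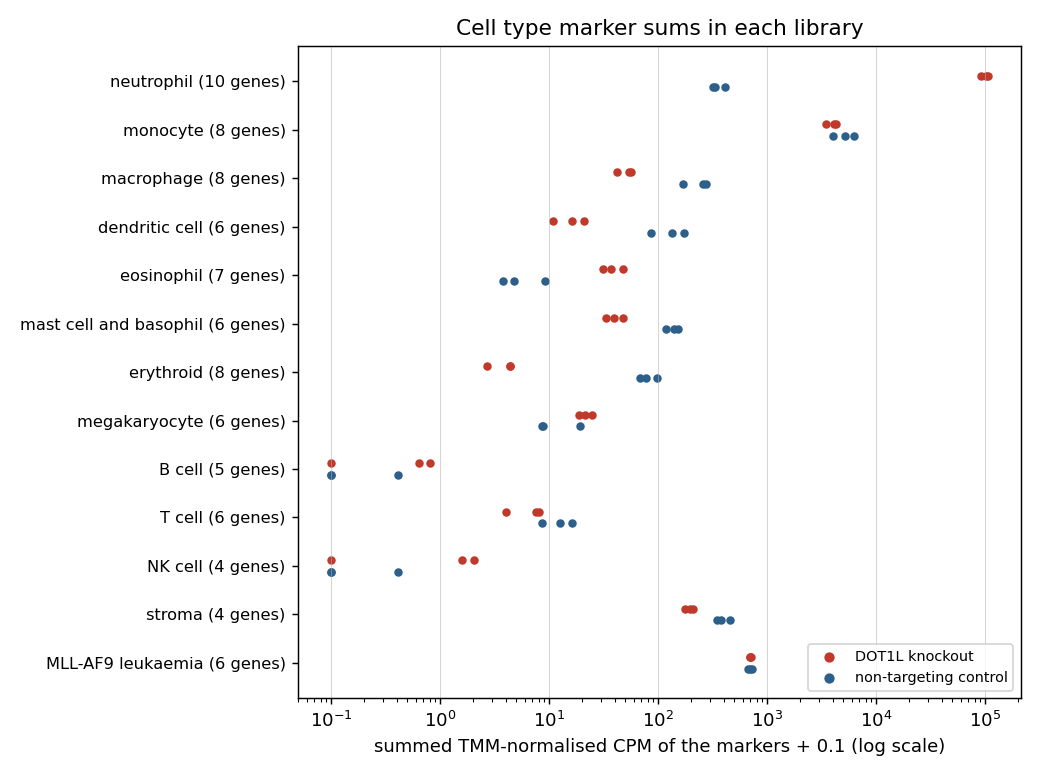
Summed TMM-normalised CPM (plus 0.1, log axis) of the marker genes of 13 cell types in each of the 3 DOT1L knockout libraries (red) and the 3 non-targeting libraries (blue). The neutrophil sum lies at 91402 to 105219 CPM in the knockout and at 321 to 410 CPM in the control, while the leukaemia sums overlap. S100a8 and S100a9 make up most of the neutrophil sum in the knockout.

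Of the 10578 genes, 1181 were higher (11.2%) and 1128 lower (10.7%) in the knockout at an adjusted p under 0.05, 21.8% in all. With a change of at least 2-fold as well, 677 were higher (6.4%) and 656 lower (6.2%). The groups of 3 did not overlap for 4040 genes (38.2%), and the median log2 fold change of all genes was 0.01. Counts of gene lists below are read against these shares. The lists were chosen with earlier results of these data known, so their counts describe and do not test.

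**Figure D2:**
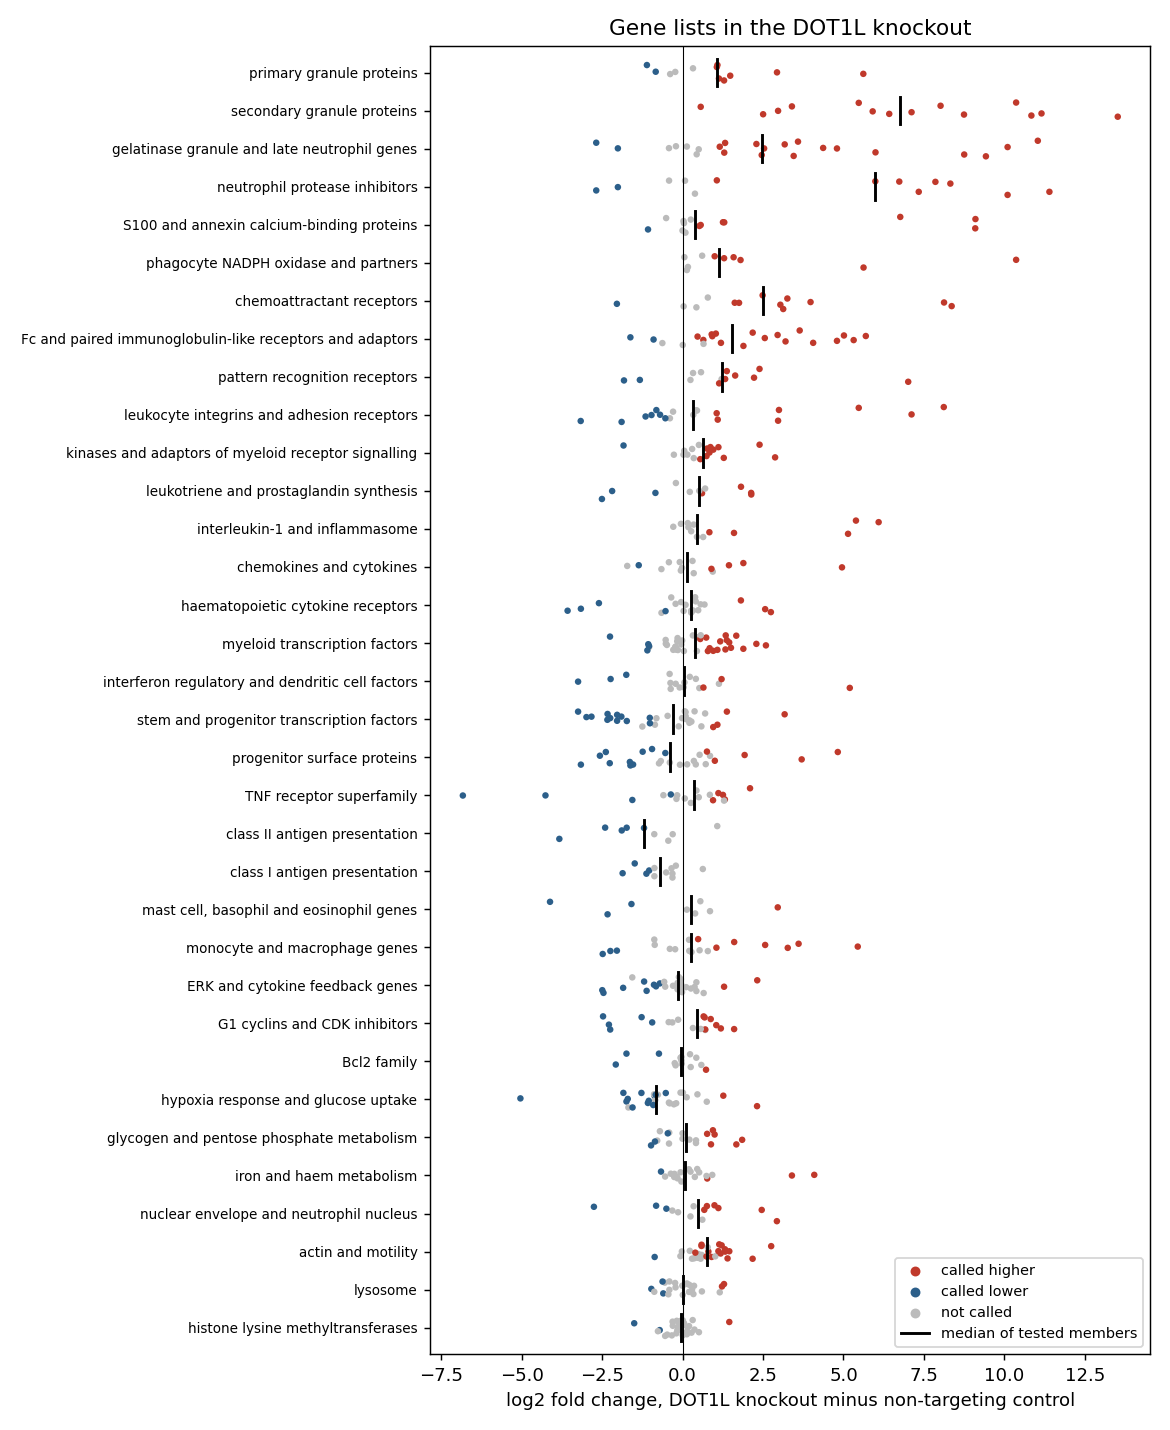
Log2 fold change of each tested gene, DOT1L knockout minus non-targeting control, for 34 gene lists, in red where called higher, blue where called lower and grey where not called, with a black bar at the list's median. The highest median is that of the secondary granule list (6.77) and the medians below -0.8 are those of class II antigen presentation and hypoxia response.

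The granule lists differed in their medians, which did not follow the order of the stages, and the gelatinase list also holds late genes outside granules. All 14 tested secondary granule genes rose (median log2 fold change 6.77, and 6.17 with Orm1, which had no control count, held at its bound), 16 of 23 gelatinase granule and late genes rose and 2 fell (median 2.46), and 7 of 12 primary granule genes rose and 2 fell (median 1.08). Within the primary list members went in both directions. Prtn3, proteinase 3, was at 1691, 1608 and 1669 CPM in the knockout and 699, 839 and 729 CPM in the control, and rose by 1.13 ± 0.17 (edgeR adjusted p = 3.67e-05). Ctsc, the protease that activates the serine proteases of these granules, was at 70.6, 70.03 and 86.6 CPM against 131, 123 and 152 CPM and fell by 0.83 ± 0.19 (edgeR adjusted p = 0.00224). Neither gene's groups overlapped. Srgn, the proteoglycan that packs granule proteins, was not called (log2 fold change -0.38 ± 0.21, edgeR adjusted p = 0.217).

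Several granule genes of these lists rose from low control levels. Ngp (ENSMUSG00000032484, chromosome 9, 110419747 to 110423012), neutrophilic granule protein, was at 4902, 5443 and 6142 CPM in the knockout and 96.9, 96.3 and 81.3 CPM in the control (log2 fold change 5.91 ± 0.31, edgeR adjusted p = 1.08e-12). Asprv1, a retroviral-like aspartic protease, was at 107, 109 and 136 CPM against 0, 0.313 and 0.389 CPM, a ratio of 501 (95% interval 138 to 4138, counting error only). Mmp9, gelatinase B, was at 327, 378 and 346 CPM against 6.59, 2.81 and 7.39 CPM (log2 fold change 5.996 ± 0.48, edgeR adjusted p = 2.35e-09). In each of the 3 genes the knockout libraries lay far above the controls. Of the protease inhibitors in the late list, Slpi and Wfdc17 went the other way. Slpi, an inhibitor of elastase, was at 315, 413 and 387 CPM against 1190.4, 1832 and 1464 CPM and fell by 2.01 ± 0.22 (edgeR adjusted p = 2.57e-07), and Wfdc17 fell by 2.68 ± 0.41 (edgeR adjusted p = 3.38e-05, and a log2 fold change of -3.47 without DOT1L replicate 2). By contrast Stfa1, Stfa2, Stfa2l1 and Stfa3, which encode stefin A inhibitors of cysteine proteases, each rose by at least 5.99 on the log2 scale.

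Some genes of mature neutrophils had few counts. Cxcr1 and Mmp25 had no count in the 6 libraries, and Fpr1, Fgr and Il1b were below the filter, with at most 4.09, 7.13 and 3.34 CPM in a knockout library and at most 0, 0 and 0.824 CPM in a control library. These 5 genes were chosen after their values were seen.

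Promoters of the named granule and oxidase genes that rose were searched for the core of the C/EBP motif, TTGCNNAA or its reverse complement TTNNGCAA, and the core of the PU.1 motif, GAGGAA or TTCCTC, on both strands, since C/EBP proteins and PU.1 are known to drive granule genes. Windows ran from 250 bases before to 50 bases after the RefSeq start on GRCm38.p6. Of 14 such genes, 9 had a promoter in the table. The C/EBP core was in 4 of 9, Ltf, Fcnb, Ngp and Pilra, and in 10.8% of all 32851 promoters. Both shares include the form TTNNGCAA, which was added after the data were seen. The matches in Ltf, Fcnb and Pilra were all of that form. The PU.1 core was in 4 of 9, Ltf, Cybb, Asprv1 and Pilra, and in 28.3% of all promoters. Ltf and Pilra held both, with no overlap between the matches. A match describes letters and is not a binding site. Fcnb, the gene of ficolin B, a lectin that binds microbial sugars, was at 1414, 1722 and 1727 CPM in the knockout against 0.824, 0.626 and 1.17 CPM. Ltf, Fcnb and Ngp are shown as the 3 widest rises with the C/EBP core, and Cybb, the gp91phox gene, as the widest rise with the PU.1 core alone, chosen after the values were seen. Capitals mark each match of either motif, with positions counted from the start site to the first matched base. The C/EBP core began at -75 in Ltf, at -235 and -123 in Fcnb, and at -138 and -11 in Ngp. The PU.1 core began at -157 in Ltf and at 10 in Cybb.
Ltf chr9:111019042-111019341, plus strand: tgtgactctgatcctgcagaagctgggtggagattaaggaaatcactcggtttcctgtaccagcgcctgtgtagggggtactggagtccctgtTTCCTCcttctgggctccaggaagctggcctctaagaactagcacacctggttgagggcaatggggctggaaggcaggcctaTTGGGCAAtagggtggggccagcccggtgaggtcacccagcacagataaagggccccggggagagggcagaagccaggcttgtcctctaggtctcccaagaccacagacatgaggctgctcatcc
Fcnb chr2:28084829-28085128, minus strand: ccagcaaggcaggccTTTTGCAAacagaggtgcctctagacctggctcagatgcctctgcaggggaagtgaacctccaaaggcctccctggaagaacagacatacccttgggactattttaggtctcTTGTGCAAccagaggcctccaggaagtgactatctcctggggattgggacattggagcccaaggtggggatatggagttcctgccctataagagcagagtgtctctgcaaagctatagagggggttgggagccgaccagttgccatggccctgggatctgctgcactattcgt
Ngp chr9:110419558-110419857, plus strand: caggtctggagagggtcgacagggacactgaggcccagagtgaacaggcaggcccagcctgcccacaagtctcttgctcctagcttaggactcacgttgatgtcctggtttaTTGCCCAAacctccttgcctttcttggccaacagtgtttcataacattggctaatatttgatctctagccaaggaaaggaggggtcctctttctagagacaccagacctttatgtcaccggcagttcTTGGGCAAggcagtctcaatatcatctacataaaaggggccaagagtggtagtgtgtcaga
Cybb chrX:9469275-9469574, minus strand: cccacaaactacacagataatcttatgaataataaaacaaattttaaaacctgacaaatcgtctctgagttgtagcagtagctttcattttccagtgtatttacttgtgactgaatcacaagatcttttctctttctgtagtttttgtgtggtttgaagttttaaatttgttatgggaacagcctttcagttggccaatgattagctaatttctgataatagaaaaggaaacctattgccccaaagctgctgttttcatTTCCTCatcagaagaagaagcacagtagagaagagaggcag
Of the 5 C/EBP cores shown, 1 was in the TTGCNNAA orientation, and both PU.1 cores were in the TTCCTC orientation.

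The oxidase that phagocytes use to make superoxide was largely raised. Of 10 tested genes 6 rose and none fell (median 1.15). Hvcn1 (ENSMUSG00000064267, chromosome 5, 122206804 to 122242297), the proton channel that balances the oxidase's charge, was at 203, 196 and 237 CPM against 5.36, 4.38 and 3.11 CPM (log2 fold change 5.62 ± 0.37, edgeR adjusted p = 6e-11). Among the cytosolic subunits, Ncf4 (p40phox) was at 434, 487 and 457 CPM against 132, 137 and 126 CPM and rose by 1.8 ± 0.2 (edgeR adjusted p = 4.92e-07). Ncf1 (p47phox) was at 2021, 2235 and 2417 CPM against 956, 725 and 541 CPM and rose by 1.59 ± 0.23 (edgeR adjusted p = 1.79e-05). In each the knockout libraries were high and the groups did not overlap. Rac2, the GTPase that activates the complex in neutrophils, rose by 1.29 ± 0.18 (edgeR adjusted p = 7.28e-06), from 1031, 1059.7 and 865 CPM to 2359.8, 2512 and 2362 CPM. Its relative Rac1 was not called (0.17 ± 0.13, edgeR adjusted p = 0.385), nor was Cyba, the membrane partner of gp91phox (0.61 ± 0.23, edgeR adjusted p = 0.0599), though Cyba was called in 3 alternative fits.

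Receptors that guide neutrophils to a source of infection were higher in the knockout. Of 13 chemoattractant receptors tested 9 rose and 1 fell (median 2.49, also with Fpr2 held at its bound). Fpr2, a receptor for formyl peptides, was at 13, 8.18 and 8.02 CPM in the knockout and had no count in any control, at least 25.3-fold higher, the floor being 3 counts summed over the control group. C5ar1, the receptor for complement C5a, was at 28.2, 46.2 and 52.4 CPM against 0.412, 0 and 0 CPM, a ratio of 369 (95% interval 65.9 to 14588, counting error only). Its 1 control count was in NT replicate 1: without that library the ratio was at least 86.5, and without NT replicate 2 it was 225. Ltb4r1, the leukotriene B4 receptor, was at 164, 158 and 207 CPM against 20.6, 21.9 and 21.8 CPM (log2 fold change 3.04 ± 0.53, edgeR adjusted p = 0.000161). The groups did not overlap for any of the 3. Ptafr, the receptor for platelet-activating factor, rose by 3.98 ± 0.72 (edgeR adjusted p = 0.000223). Gpr84, a receptor for medium-chain fatty acids, rose by 3.26 ± 0.51 (edgeR adjusted p = 4.62e-05), and by 4.42 without NT replicate 1. Its control values were 10.7, 0.938 and 3.499 CPM, replicate 1 being the highest. Ccr2, which directs monocytes, was at 8.17, 2.84 and 5.35 CPM against 14.8, 25.6 and 26.4 CPM and fell by 2.04 ± 0.42 (edgeR adjusted p = 0.000822). Cxcr4, the bone marrow retention receptor, was not called (0.03 ± 0.26, edgeR adjusted p = 0.953), and its groups overlapped.

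**Figure D3:**
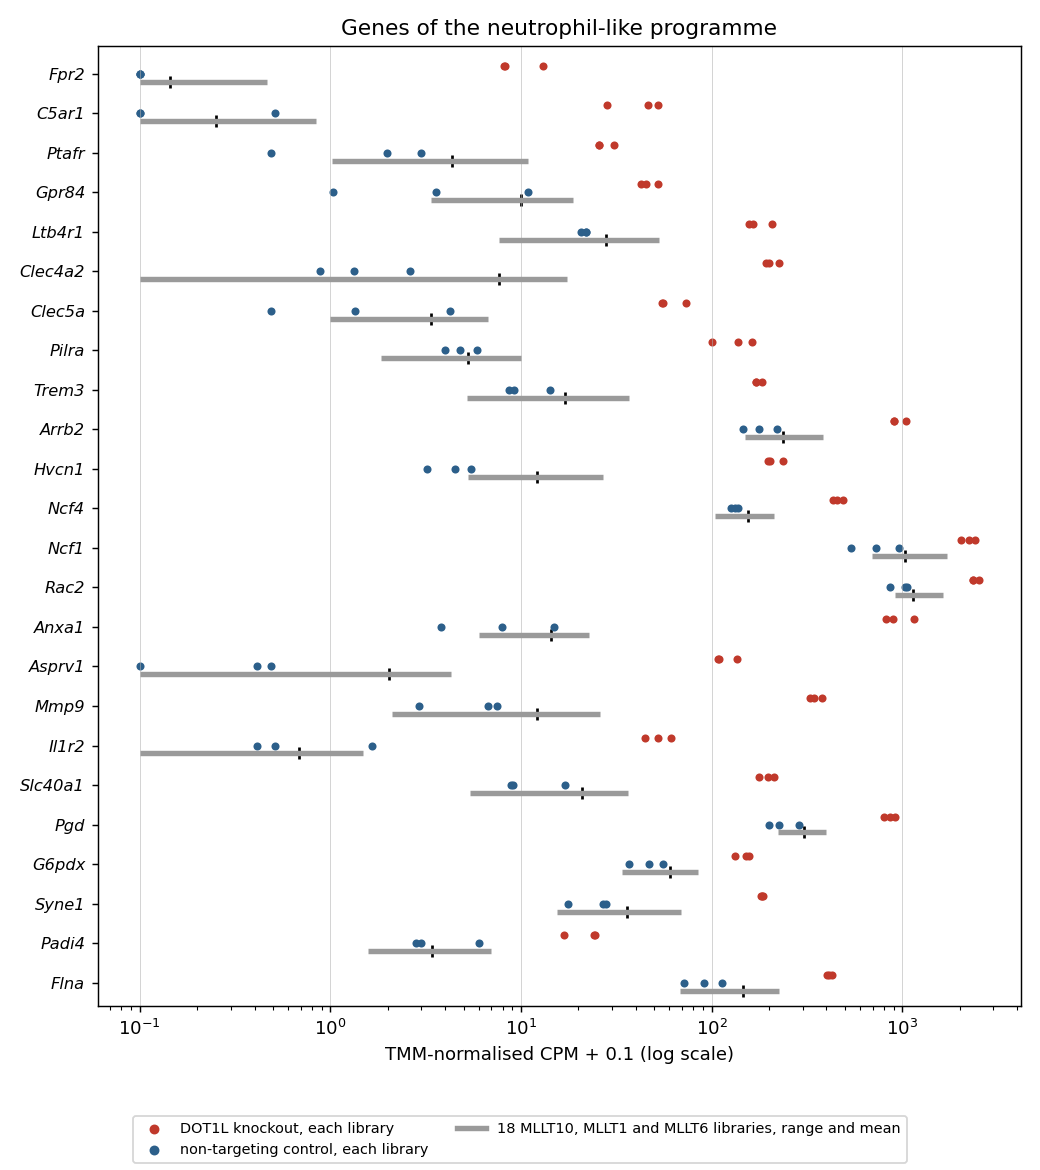
TMM-normalised CPM (plus 0.1, log axis) of 24 genes in each DOT1L knockout library (red) and each non-targeting library (blue), with the range and mean of the 18 MLLT10, MLLT1 and MLLT6 libraries (grey bar, black tick). For each gene shown the 3 knockout values lie above the 3 control values, as for Hvcn1 at 196 to 237 against 3.11 to 5.36 CPM.

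Of 22 Fc and paired immunoglobulin-like receptor and adaptor genes, which set the threshold for activating phagocytes, 17 rose and 2 fell (median 1.54). Trem3, an activating receptor, was at 183, 171 and 171 CPM against 14.01, 9.07 and 8.55 CPM (log2 fold change 4.06 ± 0.31, edgeR adjusted p = 8.26e-10). Pilra, the inhibitory member of the paired type 2 receptors, was at 100.3, 163 and 137 CPM against 5.77, 4.69 and 3.89 CPM (log2 fold change 4.8 ± 0.37, edgeR adjusted p = 1.2e-09). Knockout values exceeded control values in each pair of libraries for both genes. Its activating partners Pilrb1 and Pilrb2, which resemble each other in sequence, rose by 5.32 ± 0.48 and 5.69 ± 0.46 (edgeR adjusted p = 1.38e-08 and 2.35e-09), and by 5.93 without NT replicate 1 for Pilrb1 and 6.6 without NT replicate 2 for Pilrb2. Clec5a rose by 5.02 ± 0.49 (edgeR adjusted p = 5.2e-08, 6.08 without NT replicate 1). Cd84 and Cd244a, receptors of the SLAM family, fell by 0.9 ± 0.15 and 1.62 ± 0.35 (edgeR adjusted p = 0.000119 and 0.00135).

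Of 13 pattern recognition receptors tested, 7 rose and 2 fell (median 1.21), though the number that rose was 4 without NT replicate 2 and 4 without NT replicate 3. Nod1, a sensor of bacterial peptidoglycan inside the cell, was at 61.7, 59.4 and 63.4 CPM against 17.3, 10.9 and 6.999 CPM and rose by 2.39 ± 0.27 (edgeR adjusted p = 5.97e-07). Clec4a2, an inhibitory lectin, was at 194, 199.8 and 226 CPM against 1.24, 2.502 and 0.778 CPM and rose by 7.01 ± 0.44 (edgeR adjusted p = 3.76e-11, 7.63 without NT replicate 2). Its neighbours in the lectin family, the activating receptors Clec4d and Clec4e, were lower in the knockout. Clec4e (Mincle), which binds mycobacterial glycolipid, was at 59.4, 78.9 and 72.5 CPM against 150.4, 175 and 204 CPM and fell by 1.33 ± 0.17 (edgeR adjusted p = 2.69e-06). Clec4d fell by 1.82 ± 0.19 (edgeR adjusted p = 1.46e-07). Tlr4, the receptor for endotoxin, was not called (0.33 ± 0.26, edgeR adjusted p = 0.433).

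Downstream of these receptors, 10 of 18 kinases and adaptors rose and 1 fell (median 0.65). Arrb2, the beta-arrestin that ends signalling of chemoattractant receptors, was at 905, 1050.1 and 903 CPM against 221, 178 and 146 CPM and rose by 2.39 ± 0.23 (edgeR adjusted p = 4.03e-08). Prkcd, protein kinase C delta, rose by 1.28 ± 0.18, Vav1, an exchange factor for Rac, by 0.96 ± 0.17, and Lyn, a kinase of the Src family, by 0.87 ± 0.15 (edgeR adjusted p = 1.24e-05, 0.000144 and 0.000122). The member that fell was Lat2, a membrane scaffold of Fc receptor signalling, at 62.1, 56.5 and 46.3 CPM against 153, 225 and 206 CPM (-1.83 ± 0.22, edgeR adjusted p = 1.13e-06). Groups did not overlap for any of these 5 genes.

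Adhesion receptors moved in both directions: 7 of 19 rose and 7 fell (median 0.33), with 4 that fell when DOT1L replicate 3 or NT replicate 3 was left out. Among the rises, Itgb2l (ENSMUSG00000000157, chromosome 16, 96422288 to 96443619), a beta 2-like integrin chain, was at 192, 219.7 and 214 CPM against 3.71, 3.75 and 6.61 CPM (log2 fold change 5.47 ± 0.37, edgeR adjusted p = 8.94e-11). Itgam, the alpha chain CD11b, was at 100.3, 121 and 137 CPM against 11.5, 10.6 and 22.9 CPM (log2 fold change 2.996 ± 0.33, edgeR adjusted p = 3.2e-07). Ceacam10 was at 142, 202 and 184 CPM against 0.412, 1.25 and 0 CPM (8.12 ± 0.5, edgeR adjusted p = 2.22e-11, and 9.57 without NT replicate 2). Among the falls, Itgb7, a chain of gut-homing integrins, was at 4.46, 6.399 and 7.66 CPM against 49.5, 66.9 and 54.8 CPM and fell by 3.16 ± 0.24 (edgeR adjusted p = 1.11e-09), and Itga6, a laminin receptor chain, was at 41.6, 29.9 and 43.7 CPM against 140.1, 138 and 152 CPM and fell by 1.89 ± 0.19 (edgeR adjusted p = 9.6e-08). None of these 5 genes had overlapping groups.

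Of 28 actin and motility genes 16 rose, 1 fell and 11 were not called (median 0.76), and none fell when DOT1L replicate 1 or 3 or NT replicate 2 or 3 was left out. Flna, filamin A, which crosslinks actin, was at 428, 414 and 402 CPM against 113, 91.02 and 71.2 CPM (log2 fold change 2.18 ± 0.26, edgeR adjusted p = 8.93e-07). Arhgdib was at 2533, 2572 and 2450.3 CPM against 1035, 1095 and 885 CPM (log2 fold change 1.33 ± 0.13, edgeR adjusted p = 6.89e-08). Both were higher in each knockout library than in any control. Myo1f, Wdr1 and Lcp1, a motor, an actin-severing cofactor and a bundling protein, rose by 1.4 ± 0.16, 1.32 ± 0.15 and 0.9 ± 0.12 (edgeR adjusted p = 7.82e-07, 6.51e-07 and 9.34e-06). Tmsb4x, which binds actin monomers, had 1 of the 5 largest gains in CPM among called genes, from 4452, 4739 and 5147 to 10003, 11717 and 10882 CPM (1.19 ± 0.26, edgeR adjusted p = 0.00134).

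Of 14 tested genes of the nuclear envelope and the neutrophil nucleus, 6 rose and 3 fell (median 0.48). The number that fell was 1 when any of DOT1L replicates 1 and 3 and NT replicates 2 and 3 was left out. Syne1 (nesprin-1), which ties the nuclear envelope to the cytoskeleton, was at 181, 184 and 187 CPM against 26.8, 27.8 and 17.5 CPM (log2 fold change 2.93 ± 0.25, edgeR adjusted p = 7.64e-09). Sun2, its partner in the inner membrane, was at 1157, 1279 and 1157 CPM against 560.2, 659 and 586 CPM (log2 fold change 0.99 ± 0.15, edgeR adjusted p = 2.94e-05). The groups were apart for both. Of the enzymes that convert arginine to citrulline, Padi4, which acts on histones when neutrophils release chromatin, was at 16.7, 24.2 and 24.2 CPM against 2.89, 5.94 and 2.72 CPM and rose by 2.46 ± 0.44 (edgeR adjusted p = 0.000223). Padi2 was at 1.86, 0.711 and 0.356 CPM against 2.06, 8.13 and 7.39 CPM and fell by 2.75 ± 0.6 (edgeR adjusted p = 0.00145, and -3.55 without DOT1L replicate 1). Lmnb1, a lamin, was not called (0.25 ± 0.19, edgeR adjusted p = 0.416). Lbr, the lamin B receptor, was not called either, and the lamin gene Lmna was below the filter.

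In the interleukin-1 list 5 of 13 genes rose and none fell (median 0.45), and the widest rises were of genes that restrain the pathway. Il1r2, a decoy receptor, was at 52.02, 60.8 and 44.4 CPM against 0.412, 0.313 and 1.56 CPM (6.09 ± 0.61, edgeR adjusted p = 6.9e-08, and 7.08 without NT replicate 3). Nlrp12, a dampener of inflammatory signalling, was at 3.72, 7.82 and 7.31 CPM against 0.412, 0 and 0 CPM, a ratio of 53.8 (95% interval 9.36 to 2154, counting error only). The ratio was at least 12.6 without NT replicate 1 and 32.8 without NT replicate 2. Nlrc4, an inflammasome gene, was at 23.8, 30.2 and 24.8 CPM against 7.83, 9.07 and 8.94 CPM (1.6 ± 0.31, edgeR adjusted p = 0.000456). All 3 were higher in each knockout library than in any control. The inflammasome adaptor Pycard and the pore protein gene Gsdmd were not called (0.18 ± 0.15 and 0.27 ± 0.21, edgeR adjusted p = 0.432 and 0.419).

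Eicosanoid enzymes were mixed, with 4 of 11 that rose and 3 that fell (median 0.52). Ptgs1, cyclooxygenase 1, was at 257, 283 and 284 CPM against 68.8, 63.5 and 55.6 CPM (2.13 ± 0.23, edgeR adjusted p = 2.2e-07). Alox5ap, the partner of 5-lipoxygenase, rose by 0.61 ± 0.12, and Mgst2, which can make leukotriene C4, by 1.82 ± 0.2 (edgeR adjusted p = 0.00064 and 2.98e-07). Pla2g4a, the phospholipase that frees arachidonic acid, fell by 0.84 ± 0.17, and Hpgd, which degrades prostaglandins, by 2.19 ± 0.5 (edgeR adjusted p = 0.000542 and 0.00249). The groups did not overlap for any of the 5. Among chemokines and cytokines 4 of 14 rose and 1 fell (median 0.15), and none fell without DOT1L replicate 1 or 3 or NT replicate 3. Spp1, osteopontin, was at 21.2, 17.1 and 26.02 CPM against 4.95, 4.38 and 8.17 CPM (1.89 ± 0.41, edgeR adjusted p = 0.00156) and Il16 rose by 0.9 ± 0.18 (edgeR adjusted p = 0.000731).

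Cytokine receptors changed in both directions, with 3 of 21 that rose and 4 that fell (median 0.27). The share called was 33.3%, against 21.8% of all genes. Csf2ra, the GM-CSF receptor alpha chain, was at 65.4, 67.9 and 70.9 CPM against 6.59, 14.1 and 9.33 CPM (2.75 ± 0.36, edgeR adjusted p = 3.57e-06). Csf3r, the receptor for G-CSF, the main growth factor of neutrophils, was at 20.8, 14.6 and 19.6 CPM against 6.18, 3.75 and 5.83 CPM (1.81 ± 0.37, edgeR adjusted p = 0.000759). Knockout values were the higher ones in both, without overlap. Il2ra, the interleukin 2 receptor alpha chain, was at 0.372, 1.07 and 1.604 CPM against 9.48, 14.4 and 17.1 CPM and fell by 3.57 ± 0.52 (edgeR adjusted p = 1.64e-05, and -4.18 without DOT1L replicate 3). Il6st, the shared signal chain gp130, was at 0, 2.13 and 1.604 CPM against 9.89, 9.696 and 4.67 CPM and fell by 2.6 ± 0.5 (edgeR adjusted p = 0.000461). Ifngr1 was not called (-0.35 ± 0.19, edgeR adjusted p = 0.2).

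Of 38 myeloid transcription factors 16 rose and 4 fell (median 0.38). Mxd1, which competes with MYC for its partner MAX, was at 194, 235 and 221 CPM against 25.6, 74.4 and 74.7 CPM (1.89 ± 0.32, edgeR adjusted p = 0.00012). Klf5 was at 75.8, 75.01 and 74.3 CPM against 35.4, 25.3 and 28.8 CPM (1.33 ± 0.22, edgeR adjusted p = 8.97e-05). In both, each knockout library exceeded each control. Gfi1, a repressor needed for neutrophil formation, was not called (0.48 ± 0.2, edgeR adjusted p = 0.102). Hif1a, the oxygen-regulated factor, was at 116, 119 and 130.4 CPM against 208, 248 and 298 CPM and fell by 1.04 ± 0.17 (edgeR adjusted p = 7.6e-05), and Vdr, the vitamin D receptor, fell by 2.25 ± 0.49 (edgeR adjusted p = 0.00137). In the interferon and dendritic cell factor list 3 of 17 rose and 3 fell (median 0.04).

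Enzymes that make NADPH, the fuel of the oxidase, were among the rises. Of 18 glycogen and pentose phosphate genes 6 rose and 3 fell (median 0.11), and 6 fell when the 2 groups were fitted alone and 5 without NT replicate 1. G6pdx, the first enzyme of the pentose phosphate pathway, was at 133, 157 and 151 CPM against 55.2, 46.9 and 36.5 CPM (1.67 ± 0.21, edgeR adjusted p = 1.82e-06). Pgd, the next NADPH-producing enzyme, was at 804, 912 and 859 CPM against 288, 225 and 200.2 CPM (1.85 ± 0.16, edgeR adjusted p = 1.22e-08). For both the groups were clearly apart. Pygl, which releases glucose from glycogen, rose by 0.94 ± 0.19 (edgeR adjusted p = 0.000821), while Pgm1 and the glucose 6-phosphate transporter gene Slc37a4 fell by 0.98 ± 0.19 and 0.86 ± 0.19 (edgeR adjusted p = 0.000588 and 0.00138). Taldo1, of the later steps, was not called (0.21 ± 0.13, edgeR adjusted p = 0.266).

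Iron genes were called at 4 of 20, close to the share of all genes, with 3 that rose (median 0.08). The 1 that fell did not without DOT1L replicate 1 or 3 or NT replicate 2 or 3. The rise in Slc40a1 (ENSMUSG00000025993, chromosome 1, 45908068 to 45926523), ferroportin, the iron exporter, was nonetheless wide: 176, 197 and 212 CPM against 16.9, 8.76 and 8.94 CPM (4.09 ± 0.32, edgeR adjusted p = 1.11e-09). Hp, haptoglobin, was at 205, 207 and 199 CPM against 23.5, 20.3 and 14 CPM (3.4 ± 0.26, edgeR adjusted p = 9.48e-10). Each knockout library exceeded each control for both genes.

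Genes of the stem and progenitor state were among the losses. Of 32 such transcription factors 12 fell and 4 rose (median -0.29). Eya1 (ENSMUSG00000025932, chromosome 1, 14168954 to 14310235), a transcriptional coactivator and phosphatase, was at 21.6, 13.9 and 10.2 CPM against 114, 118 and 120.1 CPM and fell by 2.99 ± 0.28 (edgeR adjusted p = 2.71e-08). Six4, a homeobox factor chosen after its values were seen, was at 13.4, 3.91 and 7.66 CPM against 38.3, 40.97 and 38.1 CPM and fell by 2.25 ± 0.31 (edgeR adjusted p = 9.08e-06). The groups did not overlap, and DOT1L replicate 1 was the highest knockout library for both genes.

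Other regulators fell alongside. Pbx3, a partner of Hox proteins, was at 97.7, 79.3 and 71.99 CPM against 289, 338 and 389 CPM and fell by 2.03 ± 0.2 (edgeR adjusted p = 7.54e-08). Zfpm1, the GATA cofactor FOG1, was at 5.94, 6.04 and 5.702 CPM against 27.2, 31.3 and 30.7 CPM and fell by 2.33 ± 0.27 (edgeR adjusted p = 6.51e-07). Ikzf2, Helios, was at 15.6, 3.91 and 6.06 CPM against 62.7, 66.9 and 105 CPM and fell by 3.24 ± 0.39 (edgeR adjusted p = 1.07e-06), with a log2 fold change of -3.92 without DOT1L replicate 1. All control values lay above all knockout values in these 3 genes. Its relative Ikzf3, Aiolos, rose instead, at 4.09, 5.33 and 6.95 CPM against 0.412, 0 and 0 CPM, a ratio of 47.9 (95% interval 8.303 to 1922, counting error only), which was at least 11.2 without NT replicate 1 and 29.2 without NT replicate 2. Within the Hox genes outside the Hoxa cluster, Hoxc4 was at 0, 0 and 0.535 CPM against 6.18, 4.38 and 13.2 CPM, a control to knockout ratio of 28.5 (95% interval 9.31 to 142), which was at least 14.1 without DOT1L replicate 3. Not every progenitor factor fell: Myb and Lyl1 were not called (-0.12 ± 0.18 and 0.1 ± 0.22, edgeR adjusted p = 0.716 and 0.823), and Fli1 and Meis2 rose by 1.08 ± 0.27 and 1.38 ± 0.35 (edgeR adjusted p = 0.00478 and 0.00536).

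On the surface 10 of 25 progenitor proteins fell and 5 rose (median -0.39). Adgrg1, GPR56, an adhesion receptor of stem cells, was at 30.1, 15.3 and 23.3 CPM against 121, 125 and 113 CPM and fell by 2.38 ± 0.24 (edgeR adjusted p = 7.55e-08). Ly6e was at 98.5, 92.8 and 109.6 CPM against 258, 329 and 286 CPM and fell by 1.54 ± 0.16 (edgeR adjusted p = 1.7e-07). Cd34, the classical progenitor marker, chosen after its values were seen, was at 44.2, 22.4 and 24.4 CPM against 203, 174 and 158 CPM and fell by 2.57 ± 0.28 (edgeR adjusted p = 3.36e-07). Control libraries were the high ones, without overlap. Another marker of immature cells went up: Prom1, CD133, was at 172, 199 and 191 CPM against 26.8, 7.51 and 9.72 CPM (3.7 ± 0.34, edgeR adjusted p = 2.15e-08, and 4.43 without NT replicate 1, the highest control). Kit, the stem cell factor receptor and a leukaemia marker, was at 83.2, 69.3 and 82.5 CPM against 54.4, 56.3 and 66.1 CPM and was not called (0.41 ± 0.27, edgeR adjusted p = 0.309).

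**Figure D4:**
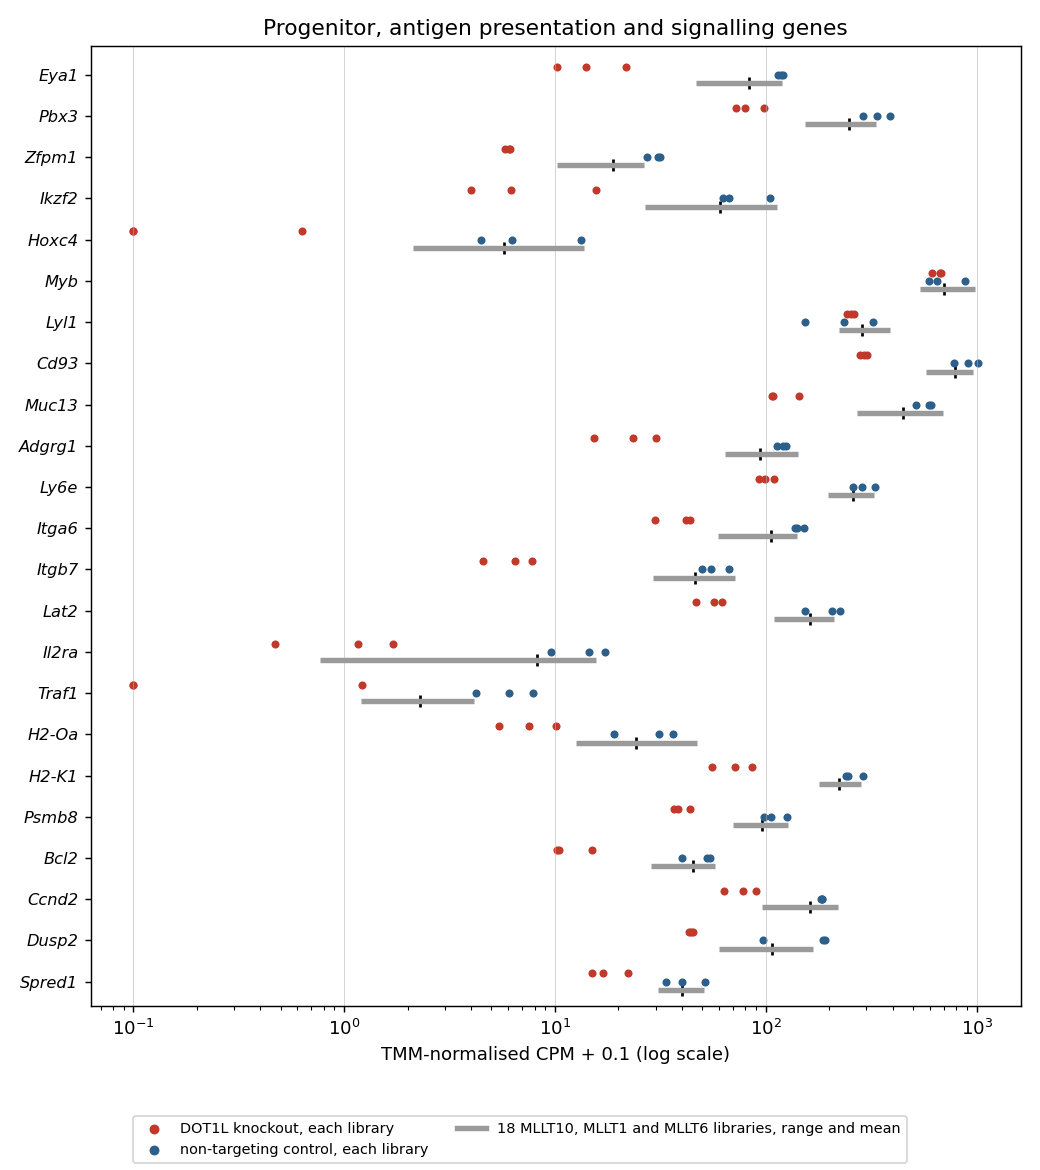
TMM-normalised CPM (plus 0.1, log axis) of 23 progenitor, antigen presentation and signalling genes in each DOT1L knockout library (red) and each non-targeting library (blue), with the range and mean of the 18 MLLT10, MLLT1 and MLLT6 libraries (grey bar, black tick). Knockout values lie to the left of the control values except for Myb and Lyl1, where the groups overlap.

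Among TNF receptors and their adaptors, 5 of 18 rose and 4 fell (median 0.35). Both receptors of TNF itself rose, Tnfrsf1a by 0.95 ± 0.18 and Tnfrsf1b by 1.32 ± 0.16 (edgeR adjusted p = 0.000376 and 1.27e-06). Tnfrsf9, 4-1BB, a costimulatory receptor, was at 0.743, 9.598 and 18.4 CPM against 988, 1652 and 927 CPM and fell by 6.82 ± 0.69 (edgeR adjusted p = 8.79e-08), with a log2 fold change of -7.82 without DOT1L replicate 3. The 3 knockout libraries differed widely among themselves, and each was far below each control. Traf1, an adaptor that binds this receptor, was at 1.11, 0 and 0 CPM against 4.12, 5.94 and 7.78 CPM, a control to knockout ratio of 22.2 (95% interval 7.15 to 111, counting error only). The ratio was at least 16.8 without DOT1L replicate 1 and 10.97 without DOT1L replicate 3. Nfkbia, the inhibitor of NF-kappaB, was at 445, 507 and 471 CPM against 94.4, 102 and 88.3 CPM and rose by 2.32 ± 0.19 (edgeR adjusted p = 2.92e-09), with Nfkb1 not called (0.41 ± 0.45, edgeR adjusted p = 0.581).

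Genes of both classes of antigen presentation were among the losses. Of 9 class II genes 5 fell and none rose (median -1.20). H2-Oa, a chain of the regulator of peptide loading, was at 7.43, 5.33 and 9.98 CPM against 18.96, 36.3 and 31.1 CPM and fell by 1.89 ± 0.34 (edgeR adjusted p = 0.000194). H2-DMb1, a chain of the loading catalyst, fell by 1.2 ± 0.3 (edgeR adjusted p = 0.0047). The classical chains H2-Ab1 and H2-Eb1 were below the filter. In class I 4 of 12 fell and none rose (median -0.69). H2-K1, a classical class I heavy chain, was at 55.7, 86.03 and 71.5 CPM against 246, 288 and 241 CPM and fell by 1.86 ± 0.17 (edgeR adjusted p = 2.39e-08). Psmb8, a subunit of the immunoproteasome, was at 43.5, 38.4 and 36.5 CPM against 98.1, 126 and 106 CPM and fell by 1.48 ± 0.17 (edgeR adjusted p = 6.37e-07), and Tap1, a peptide transporter, fell by 1.04 ± 0.18 (edgeR adjusted p = 0.000148). Control libraries were higher than knockout libraries in each of these 5 genes. The other heavy chain, H2-D1, and the shared light chain, B2m, were not called (-0.34 ± 0.19 and 0.63 ± 0.27, edgeR adjusted p = 0.225 and 0.0986). With the compared groups alone or with no filter, B2m was called higher (edgeR adjusted p = 0.0128 and 0.0125). Flt3, the 1 dendritic cell marker tested, was lower too, as given above, and the part of such cells in these values was not tested.

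Feedback genes of ERK and cytokine signalling fell at 8 of 28 and rose at 2 (median -0.14), with 4 or 5 that fell when DOT1L replicate 1, DOT1L replicate 2 or NT replicate 2 was left out. Dusp2, a phosphatase of ERK, was at 44.96, 43.01 and 43.8 CPM against 96.5, 190.2 and 186 CPM and fell by 1.84 ± 0.27 (edgeR adjusted p = 2.07e-05). Spred1, an inhibitor of Ras signalling, was at 14.9, 16.7 and 22.1 CPM against 51.5, 39.7 and 33.4 CPM and fell by 1.19 ± 0.19 (edgeR adjusted p = 6.49e-05). Socs2, a brake on cytokine receptors, was at 92.1, 81.05 and 73.95 CPM against 134, 165 and 157 CPM and fell by 0.89 ± 0.16 (edgeR adjusted p = 0.000186). In all 3 the knockout was lower without overlap. Pim1, a kinase gene induced by cytokines, was not called (-0.54 ± 0.37, edgeR adjusted p = 0.348).

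Regulators of the step from G1 into S moved in both directions, 7 of 18 up and 5 down (median 0.44). The number up was 3 or 4 in 5 of the 12 alternative fits, among them those without DOT1L replicate 1, 2 or 3 and without NT replicate 2. Ccnd2, cyclin D2, was at 89.5, 77.5 and 63.1 CPM against 185, 183 and 185 CPM and fell by 1.27 ± 0.22 (edgeR adjusted p = 0.000122). Cdkn1a, the CDK inhibitor p21, was at 18.6, 47.3 and 37.1 CPM against 67.2, 195 and 228 CPM and fell by 2.25 ± 0.45 (edgeR adjusted p = 0.0007). E2f2, an activator of S phase genes, was at 64.7, 69.7 and 59.9 CPM against 31.7, 16.9 and 15.6 CPM and rose by 1.6 ± 0.25 (edgeR adjusted p = 4.73e-05). The groups were separate for each, although replicate 1 had the lowest Cdkn1a in both groups. Cdk4 and Cdk6 were not called (-0.32 ± 0.16 and -0.43 ± 0.16, edgeR adjusted p = 0.167 and 0.0629), though Cdk6 was called lower in 5 of the 12 alternatives with edgeR or DESeq2 (adjusted p = 0.0328 to 0.0477). In the Bcl2 family 1 of 14 rose and 3 fell (median -0.03), not far from the background. Bcl2, the survival factor, was at 14.9, 10.3 and 10.2 CPM against 39.98, 54.4 and 52.5 CPM and fell by 2.07 ± 0.22 (edgeR adjusted p = 2.57e-07), while Mcl1, a survival factor that neutrophils depend on, was not called (0.23 ± 0.16, edgeR adjusted p = 0.33).

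Of 27 genes of the response to low oxygen and glucose uptake 12 fell in the knockout and 2 rose (median -0.83). Egln3, a prolyl hydroxylase induced by hypoxia, was at 106, 173 and 135 CPM against 426, 494 and 559.5 CPM and fell by 1.84 ± 0.16 (edgeR adjusted p = 1.17e-08). Pdk1, which holds pyruvate back from mitochondria, was at 64.3, 114 and 116 CPM against 189.6, 242 and 285 CPM and fell by 1.28 ± 0.18 (edgeR adjusted p = 1.62e-05). Bnip3, a mitophagy receptor, was at 59.8, 247 and 262 CPM against 457, 744 and 709 CPM and fell by 1.74 ± 0.32 (edgeR adjusted p = 0.000253). Knockout values were lower without overlap, and replicate 1 was the lowest library of each group in all 3 genes. Higd1a, a mitochondrial protein, fell by 0.91 ± 0.14 (edgeR adjusted p = 5.2e-05). The glucose transporter gene Slc2a3 (GLUT3) was at 169, 236 and 217 CPM against 77.5, 86.6 and 94.1 CPM and rose by 1.27 ± 0.21 (edgeR adjusted p = 9.43e-05), and Pfkfb4, which tunes glycolytic flux, was at 53.5, 73.9 and 67.2 CPM against 9.89, 15.3 and 13.6 CPM and rose by 2.32 ± 0.23 (edgeR adjusted p = 9e-08). Hk1 and the lactate exporter gene Slc16a3 were not called (-0.2 ± 0.21 and -0.27 ± 0.22, edgeR adjusted p = 0.564 and 0.449).

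**Figure D5:**
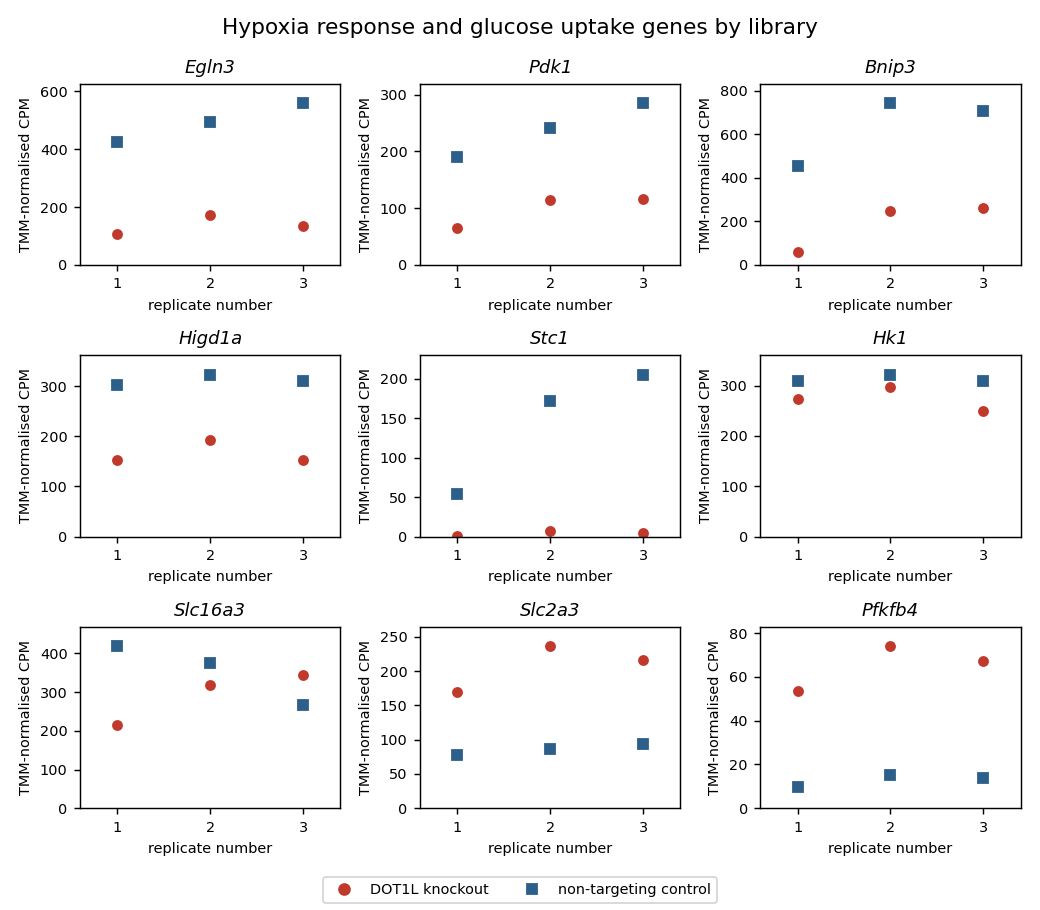
TMM-normalised CPM of 9 hypoxia response and glucose uptake genes by replicate number, in DOT1L knockout libraries (red circles) and non-targeting libraries (blue squares), each axis from 0. Replicate 1 is the lowest of both groups for Bnip3 (59.8 and 457 CPM) and Stc1, and Slc2a3 and Pfkfb4 lie higher in the knockout in each replicate.

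Genes of other blood lineages changed in both directions. Of 19 monocyte and macrophage genes 7 rose and 3 fell (median 0.28). The share called was 52.6%, and 50% in the mast cell, basophil and eosinophil list, against 21.8% of all genes. Mgl2, a galactose-binding lectin, was at 139, 125 and 109 CPM against 15.7, 7.19 and 8.17 CPM (3.61 ± 0.37, edgeR adjusted p = 1.04e-07). Its close relative Clec10a fell by 2.24 ± 0.42 (edgeR adjusted p = 0.000314), from 23.5, 16.6 and 15.9 CPM to 4.09, 2.49 and 4.81 CPM. F13a1, a coagulation factor chain of monocytes, rose by 1.61 ± 0.29 (edgeR adjusted p = 0.0002). Tgfbi rose from 2 control counts, a ratio of 47.2, which was 32.4 without NT replicate 3. The other members that rose were Adgre5, Csf1r, Cd63 and Ms4a6d, and Adgre1 and Ccr2 also fell. In the mast cell, basophil and eosinophil list 1 of 8 rose and 3 fell (median 0.26): Siglecf was at 28.2, 30.2 and 44.9 CPM against 3.297, 6.26 and 3.499 CPM (2.96 ± 0.33, edgeR adjusted p = 3.55e-07), and Mcpt8, a basophil protease, fell by 1.59 ± 0.33 (edgeR adjusted p = 0.00106).

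Lists with a share near or below the background were the lysosome genes, with 5 of 23 called (median 0.01), and the histone methyltransferases and demethylases, with 3 of 32 called (median -0.05, and 2 in place of 1 that rose without NT replicate 1). Neu1, the lysosomal sialidase, was at 233, 314 and 270.3 CPM against 87.8, 118 and 129 CPM (1.29 ± 0.18, edgeR adjusted p = 9.55e-06). Kdm5b, an H3K4 demethylase, was at 20.4, 12.8 and 14.3 CPM against 39.6, 45.4 and 48.6 CPM and fell by 1.5 ± 0.29 (edgeR adjusted p = 0.00054), and Kdm7a, an H3K9 and H3K27 demethylase, rose by 1.45 ± 0.33 (edgeR adjusted p = 0.00227). Setd2 and Setd1a were not called (0.16 ± 0.15 and 0.32 ± 0.22, edgeR adjusted p = 0.524 and 0.355).

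Outside the lists, several of the largest rises were of genes better known from other tissues. Cftr (ENSMUSG00000041301, chromosome 6, 18170687 to 18322768), the chloride channel mutated in cystic fibrosis, was at 79.1, 49.4 and 43.7 CPM against 0.824, 0.313 and 0 CPM, a ratio of 147 (95% interval 49.96 to 713, counting error only), and of 309.8 without NT replicate 1. Ush1c, a scaffold of hair cells and gut epithelium, was at 21.6, 16.4 and 19.96 CPM and had no count in a control, at least 53.1-fold higher. Krt83, a hair keratin, was at 18.9, 16 and 18.5 CPM, also with no control count, at least 49.1-fold higher. The groups were apart for all 3. Erc2, a protein of synapses, and Map6, which stabilises microtubules, had no control count and were at least 68.6-fold and 37.4-fold higher. Of the chitinase-like family, which includes the granule gene Chil3, Chil1 was at 185, 192 and 189 CPM against 0.824, 0.938 and 1.17 CPM (7.55 ± 0.51, edgeR adjusted p = 1.25e-10). The chitinase gene Chit1, chitotriosidase of phagocytes, was at least 29-fold higher.

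Among the largest falls outside the lists, Ddx4, a helicase of germ cells, was at 3.34, 2.13 and 1.604 CPM against 32.6, 37.8 and 43.5 CPM and fell by 4.07 ± 0.38 (edgeR adjusted p = 2.25e-08). Hbb-bt, an adult beta globin, was at 1.49, 1.78 and 2.85 CPM against 65.5, 92.9 and 73.9 CPM and fell by 5.13 ± 0.36 (edgeR adjusted p = 2.86e-10), while its near-identical copy Hbb-bs and the alpha globin gene Hba-a2 were at 0 in all 6 libraries. Control libraries were higher throughout. Fxyd4, a regulator of the sodium pump, and Hrc, a calcium-binding protein of muscle, had no count in the knockout and were at least 24.4-fold and 23.96-fold lower.

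The knockout was also compared with the mean of the 6 groups of MLLT10, MLLT1 and MLLT6 guides. This comparison uses the same 3 knockout libraries, so it is not independent of the first, and its values are given beside those above. In it 1583 genes were higher (15%) and 1323 lower (12.5%), 27.5% in all, although the number lower was 854 without DOT1L replicate 3. Hvcn1 was at a mean of 12.1 CPM over the 18 libraries (range 5.15 to 26.7 CPM), a log2 difference of 4.21 ± 0.17 (edgeR adjusted p = 2.35e-15). Eya1 was at 83.1 CPM (range 46.7 to 119 CPM), a log2 difference of -2.47 ± 0.24 (edgeR adjusted p = 2.58e-08). Tnfrsf9 varied from 31.3 to 1639.6 CPM over the 18 libraries, with a log2 difference of -4.84 ± 0.6 (edgeR adjusted p = 9.99e-07). By list, all 14 secondary granule genes were higher than this mean, 5 of 9 class II genes and 12 of 27 hypoxia genes were lower, and 5 rather than 8 of the 28 feedback genes were lower.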

How the data were processed

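RNA sequencing was made on 24 libraries, 6 of which are compared here. The deposited table holds whole-number counts of reads per gene, made by the authors from mm10; the submitters' processing notes name bcl2fastq, HISAT2, HTSeq and DESeq2. Versions, strand and the handling of reads with several matches: not given in the sources used here. Counts were tested with edgeR 4.0.16 in R 4.3.3, with TMM scaling, filterByExpr at a minimum count of 10 and quasi-likelihood fits over all 8 groups of 3, and p-values were adjusted over 10578 genes. A gene was called at an adjusted p under 0.05. The SE was taken as the size of the log2 value divided by the root of its F statistic. Intervals and floors cover counting error only.

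The gene lists (34, with 804 distinct genes, 2 of them not found) and the comparison were chosen with earlier results of these data known. Named genes follow a rule. They are DOT1L and its partners, up to 5 called genes per list by adjusted p, up to 2 that moved against the list, up to 2 abundant uncalled members, the 12 largest rises and falls outside the lists at 5 CPM or more, and the 5 largest gains and losses in CPM. Some genes that the rule names are not reported here. Marker genes and genes said to be chosen after their values were seen come in addition.

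The fit was first tested on simulated data. For the knockout against the control it called 6% of 1.5-fold, 64% of 2-fold and 98% of 4-fold changes in the right direction, among 50 genes each. A gene not called is therefore not shown to be unchanged. Among the 12 alternatives were DESeq2 1.42.0 size factors and test, no filter, the compared groups alone and a replicate block. In 6 others, 1 of the 6 compared libraries was left out. The last left out both MLLT1 guide G1 replicate 1 and MLLT6 guide G1 replicate 3, which are outside the compared groups. They stood at 48.6 and 36.6 on the second principal component, and NT replicate 3, at -40.8, was kept in that fit. Gene positions are those of GENCODE on mm10, and promoters are those of RefSeq on GRCm38.p6. The reverse complement of the C/EBP core, TTNNGCAA, was added to the promoter search after the data were seen.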

Additional observations from a re-analysis of the deposited data

How the results depend on the processing

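Over the 12 alternatives 73.8% to 99.9% of the 2309 called genes kept their call and direction, and none was called the opposite way. With single libraries left out, 925 to 1146 genes were higher and 825 to 1190 lower. Against the mean of the MLLT guide groups, the number lower was 854 to 1062 with a DOT1L library left out, lowest without replicate 3, against 1323 in full. Of 204 named genes called, 192 kept the call under every alternative, and 16 named genes not called were called under at least one. Same-numbered libraries deviated together weakly (correlations of 0.24, 0.06 and 0.13), and differently numbered ones correlated at -0.19 to 0.07. DOT1L replicate 2 correlated at 0.07 with NT replicate 3 and at 0.06 with NT replicate 2. On the second principal component, which held 14% of the variance, replicates 1, 2 and 3 stood at 12.1, 1.97 and -3.56 in the knockout. In the control they stood at 11.2, -7.09 and -40.8. These values do not settle whether the numbers pair the samples, and the main fit did not model an effect of the number. The replicate block gave 1397 genes higher and 1289 lower, with 2307 of the 2309 calls kept, and under it B2m was called higher (0.63, edgeR adjusted p = 0.0281) and Cdk6 lower (-0.43, edgeR adjusted p = 0.0355). Genes under the filter on low counts were tested only in the fit without it, and for genes with few counts the depth leaves wide intervals on a ratio.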
